A study of Mus musculus with 6 samples.

Results

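The genes described here are the 4 lecticans *Vcan* (versican), *Acan* (aggrecan), *Bcan* (brevican) and *Ncan* (neurocan), the link proteins *Hapln1* and *Hapln3*, the hyaluronan synthases *Has1*, *Has2* and *Has3*, and the hyaluronan receptor *Cd44*. They were taken by gene symbol, and all 10 were found among the 24421 rows of the expression matrix. The study traced cells of the murine aortic root and ascending aorta by lineage. Strain 129S6/SvEv mice at 8 weeks of age carried the Cre-dependent nuclear GFP reporter *CAG-Sun1/sfGFP* together with either *Mef2cSHF*, whose Cre marks the secondary heart field (SHF), or *Wnt1-Cre2*, whose Cre marks the cardiac neural crest (CNC). Living GFP+ cells were sorted, and bulk RNA sequencing gave 3 libraries per lineage, described as biological replicates. Both Cre drivers mark a developmental origin and not a cell type, so that any aortic cell of that origin could enter the sort.

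Hyaluronan is a long unbranched sugar polymer that synthases in the cell membrane make and extrude. Lecticans are large chondroitin sulfate proteoglycans that bind hyaluronan at one end and other matrix proteins at the other, and link proteins lock that bond. In arteries and heart valves, versican is the main lectican, aggrecan is best known from cartilage, and brevican and neurocan are mostly proteins of nervous tissue. CD44 anchors the hyaluronan coat at the cell surface.

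Values are TPM, a level per transcript length relative to the total of its library, so that levels can be compared between genes. TPM do not carry the number of reads, so depth is unknown and no detection limit can be given. Amplified cDNA from few cells loses transcripts, and of 7444 genes averaging 10 TPM or more, 27.4% were at 0 in some library, so a 0 is given here as listed at 0. From 9255 to 11858 genes per library were above 0. In all 6 libraries 10 fibroblast genes summed to 29221 to 54798 TPM and 11 smooth muscle genes to 1382 to 3206 TPM, so the sorted cells were not smooth muscle alone. *Xist* was above 0 in SHF replicates 2 and 3 only, so that sex, as far as *Xist* marks it, was partly confounded with lineage. In bulk libraries, fewer cells of a type and less RNA per cell cannot be told apart.

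In both lineages, *Has1*, *Vcan* and *Cd44* were abundant and the other 7 genes were low or listed at 0. *Vcan* and *Cd44* were higher in each SHF library than in each CNC library, by 2.40-fold and 2.00-fold between lineage means. The low gene *Hapln1* was separated in the same way, but it entered the test only through its SHF values and so had to differ. None of these differences passed the test across all genes. *Has1* overlapped between the lineages.

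*Vcan*, on chromosome 13 of GRCm38 from 89655312 to 89742509 on the minus strand, reached 234, 304 and 135 TPM in SHF replicates 1, 2 and 3. The CNC replicates had 88.6, 94.8 and 96.7 TPM in the same order. All SHF libraries were above all CNC libraries, and the lowest SHF value was 1.39 times the highest CNC value. The lineage means were 224 ± 85.0 TPM (SD, n = 3) for SHF and 93.4 ± 4.22 TPM (SD, n = 3) for CNC. The CNC libraries lay close together. Their highest value was 1.09 times their lowest, a ratio smaller than that of all but 1.11% of the 1899 genes with a mean of 50 to 200 TPM and a value above 0 in all libraries. Those genes had a median ratio of 2.07 in CNC. The SHF libraries were not unusual in this, at 2.25 for *Vcan* and a median of 2.37.

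On the log2(TPM + 1) scale, *Vcan* was 1.18 ± 0.41 (SE) higher in SHF, with a 95% interval from 0.27 to 2.09. Over the 10185 genes that reached 1 TPM in 3 or more libraries, limma with Benjamini-Hochberg adjustment gave *Vcan* an adjusted p of 0.699. An exact two-sided permutation test of *Vcan* gave p = 0.1, the smallest that 3 libraries against 3 allow. Of all genes tested, 0% were called at an adjusted p under 0.05, and 5.86% (597 genes) had an unadjusted p under 0.05, 2.69% with SHF higher and 3.17% with CNC higher; the unadjusted p of *Vcan* was 0.0156. The difference was above 0 for 51.2% of all genes tested. Among all genes tested, 14.8% had a larger SHF excess than *Vcan*. The excess did not rest on 1 library, since without any single library it ran from 0.92 to 1.51. Between SHF replicate 1 and the CNC libraries, the 4 libraries in which *Xist* was listed at 0, it was 1.32 ± 0.39 (SE), with an adjusted p of 0.997 in limma, a comparison added after the data were seen. This SE assumes that the lone SHF library varies like the CNC libraries, which lay closer together for *Vcan* than the SHF libraries did. In the same comparison *Cd44* was 0.96 and *Hapln1* 1.86 higher, the latter down from 3.27 with all libraries, with an adjusted p of 0.997 for both in limma.

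*Cd44*, on chromosome 2 from 102811141 to 102901665 on the minus strand, reached 117, 173 and 94.6 TPM in SHF replicates 1, 2 and 3. The CNC replicates had 82.1, 33.0 and 77.5 TPM. The lineages did not overlap, but the gap was narrow, with the lowest SHF value 1.15 times the highest CNC value. The lineage means were 128 ± 40.6 TPM (SD, n = 3) for SHF and 64.2 ± 27.1 TPM (SD, n = 3) for CNC. The difference on the log2(TPM + 1) scale was 1.05 ± 0.51 (SE), with an interval from -0.08 to 2.18, and the adjusted p in limma was 0.874. It was smallest, at 0.63, without CNC replicate 2, the library with the lowest *Cd44*. SHF replicate 2 had the highest value of both *Cd44* and *Vcan*, and SHF replicate 3 had the lowest SHF value of both.

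*Cd44* is also a leukocyte transcript. Of 10 leukocyte markers, 5 were listed at 0 in all libraries, among them *Ptprc*, *Adgre1*, *Itgam* and *Cd3e*. The 10 markers summed to 0 to 39.8 TPM in SHF and 7.96 to 84.7 TPM in CNC. The sum was 0 in SHF replicate 2, where *Cd44* was highest, and 84.7 TPM in CNC replicate 2, where *Cd44* was lowest. *Cd74*, a partner gene of CD44 that is not among these 10 markers, was also highest in SHF replicate 2, at 387 TPM. It was at 267 TPM in CNC replicate 2. The part of leukocytes in the level of *Cd44* was not tested.

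Of the 4 genes above 0 in all libraries, *Has1*, *Vcan*, *Cd44* and *Has2*, 2 had lineages that did not overlap. Among the 6276 genes tested that were above 0 in all libraries this was so for 12.5%, and among all genes tested for 11.8%, that is 6.11% with SHF higher and 5.68% with CNC higher. No test was made of the list, and 4 genes are few. None of the 10 genes was exclusive to a lineage by the study's criterion of exclusive expression, read here as over 5 TPM in all libraries of a lineage with the other lineage at 0, which 34 of 24421 rows met (0.139%).

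**Figure D1:**
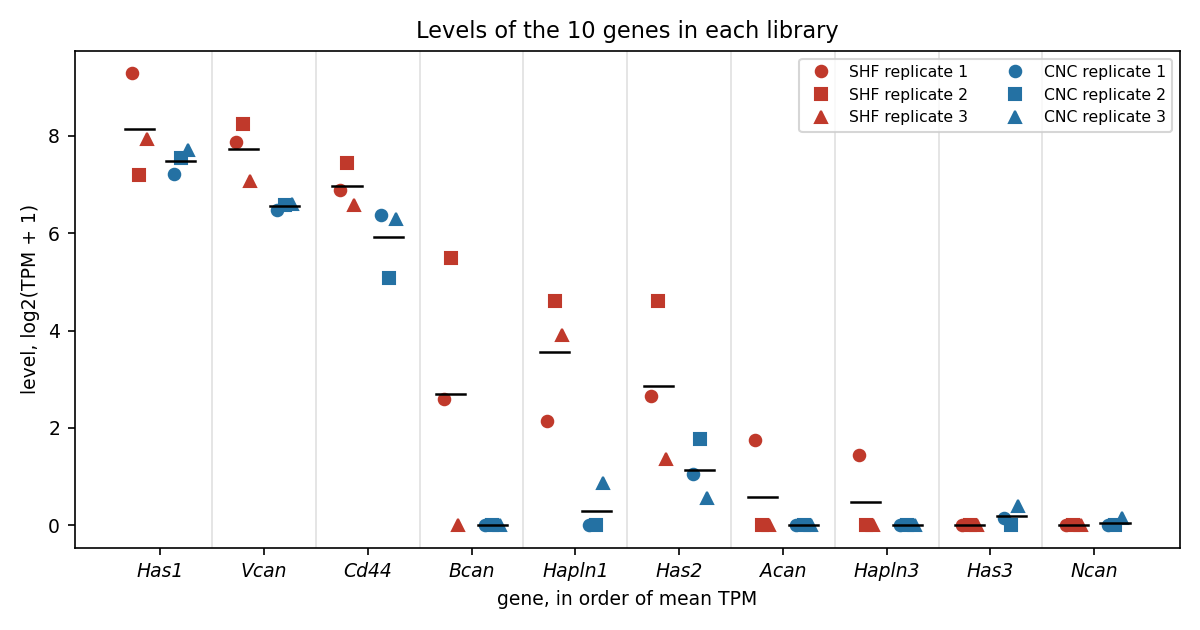
Level of each of the 10 genes in each library, as log2(TPM + 1) on the vertical axis, with genes along the horizontal axis in order of mean TPM. Red symbols are SHF libraries, blue symbols CNC libraries, symbol shapes give the replicate number and black bars the lineage means. *Vcan* and *Cd44* lie higher in all 3 SHF libraries than in all 3 CNC libraries, while *Has1* overlaps, and 4 genes are at 0 or near it.

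The 250 bases before the RefSeq start of *Vcan* and of *Cd44* are shown because these are the abundant genes of the group that separated the lineages. RefSeq windows, on GRCm38.p6, were matched by symbol for 8 of the 10 genes, not for *Has2* and *Has3*. *Vcan* is read from chr13:89742513-89742762 and *Cd44* from chr2:102901666-102901915, both on the minus strand and written 5′ to 3′. Capitals mark matches to the GC box GGGCGG on either strand.
Vcan: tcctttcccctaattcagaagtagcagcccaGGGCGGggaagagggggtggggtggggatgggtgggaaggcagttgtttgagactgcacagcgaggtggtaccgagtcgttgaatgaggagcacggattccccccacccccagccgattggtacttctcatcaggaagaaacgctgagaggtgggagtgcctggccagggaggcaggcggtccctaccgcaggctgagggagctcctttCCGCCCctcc
Cd44: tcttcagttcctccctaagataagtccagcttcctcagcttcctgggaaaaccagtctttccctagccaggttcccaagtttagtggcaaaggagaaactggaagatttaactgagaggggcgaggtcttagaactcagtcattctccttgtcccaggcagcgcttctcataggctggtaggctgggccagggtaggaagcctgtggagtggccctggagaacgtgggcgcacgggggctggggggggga
The *Vcan* window held 2 GC boxes and the *Cd44* window held none. The motif was present in 32.7% of all 32851 promoter windows of that length. Neither window held TATAAA, which 12.4% of windows did, TGANTCA, the AP-1 motif, which 6.75% did, or the CArG box of smooth muscle genes, which 1.47% did. GC content was 62.4% for *Vcan* and 56.4% for *Cd44*, against a median of 52.4% over all windows. These are matches of letters in short windows, from which nothing about binding was drawn.

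Among the synthases, *Has1* was the most abundant in all libraries. *Has1*, on chromosome 17 from 17843323 to 17855205 on the minus strand, reached 624, 146 and 244 TPM in SHF replicates 1, 2 and 3 while the CNC replicates had 148, 185 and 208 TPM. SHF replicate 1 stood above all other libraries, and SHF replicate 2 had the lowest value, so the lineages overlapped. The lineage means were 338 ± 252 TPM (SD, n = 3) and 180 ± 30.0 TPM (SD, n = 3). *Has1* was 0.65 ± 0.49 (SE) higher in SHF on the log2(TPM + 1) scale, with an adjusted p of 0.888 in limma, and the difference rested on single libraries, at 0.08 without SHF replicate 1 and 1.12 without SHF replicate 2, where the lineages no longer overlapped. Between SHF replicate 1 and the CNC libraries it was 1.80, with an adjusted p of 0.936 in limma.

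*Has2*, the synthase required for heart cushion formation in the embryo, is on chromosome 15 from 56665627 to 56694539 on the minus strand. Its values were 5.28, 23.4 and 1.56 TPM in SHF replicates 1, 2 and 3 while the CNC replicates had 1.07, 2.43 and 0.48 TPM. SHF replicate 2 was the highest, and SHF replicate 3 lay below CNC replicate 2, so the lineages overlapped. The difference was 1.74 ± 1.21 (SE) on the log2(TPM + 1) scale, with an adjusted p of 0.883 in limma, and it was 0.87 without SHF replicate 2. Exons of *Has2* overlap those of *Has2os* on the opposite strand, and the amplification protocol does not mark strand, and reads from the shared stretch cannot be assigned to *Has2* with certainty. *Has3* was listed at 0 in all SHF libraries and was at 0.11, 0 and 0.31 TPM in the CNC replicates. Its exons overlap *Chtf8*.

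*Has1* therefore made up 98.7% to 99.6% of the summed synthase level in 5 libraries. In SHF replicate 2 its share was 86.2% and that of *Has2* 13.8%. In that library *Has1* was 6.25 times as high as *Has2*, against 76.2 to 433 times in the others. The summed synthase level was 629 TPM in SHF replicate 1 and 150 to 245 TPM elsewhere.

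**Figure D2:**
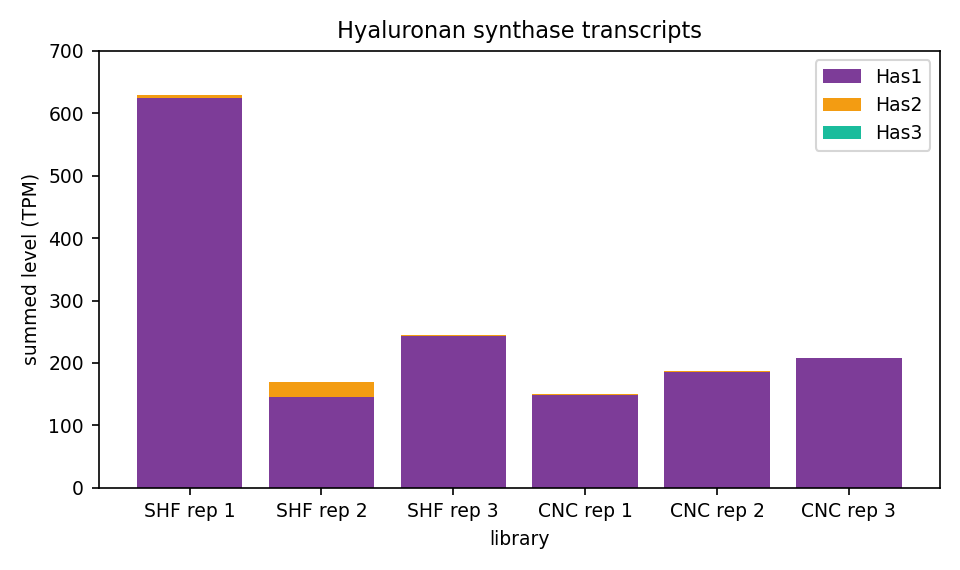
Summed level of the hyaluronan synthase genes in each library, in TPM on the vertical axis, with the libraries along the horizontal axis. Purple is *Has1*, orange *Has2* and green *Has3*, and each bar is 1 library. *Has1* fills nearly the whole bar, *Has2* is visible mainly in SHF replicate 2 (13.8%), and the bar of SHF replicate 1 is the highest, at 629 TPM.

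Over the 6 libraries and 7364 other tested genes averaging 10 TPM or more, the genes most like *Has1* by Pearson's r of log2(TPM + 1) were *Ccl2* (r = 0.988), *Ptx3* (r = 0.958) and *Ctgf* (r = 0.953). *Ccl2* encodes a chemokine that attracts monocytes, *Ctgf* a matricellular growth factor and *Ptx3* a pentraxin that takes part in cross-linking hyaluronan. All were highest in SHF replicate 1, and without that library r was 0.959 for *Ccl2*, 0.627 for *Ptx3* and 0.614 for *Ctgf*. With so few libraries and so many genes, high values of r arise readily, and all points share the library they came from. *Tnfaip6*, whose product TSG-6 transfers heavy chains onto hyaluronan, was likewise highest in SHF replicate 1, at 387 TPM, and lowest in SHF replicate 2, at 41.8 TPM. *Ptx3* was at 197 TPM in SHF replicate 1 and between 31.9 and 55.2 TPM in the others. A list of 12 dissociation response genes was also highest in SHF replicate 1, with a sum of 13837 TPM, and lowest in SHF replicate 2, at 6351 TPM, as *Has1* was. Its part in the level of *Has1* was not tested. Of 6 mesothelial markers, a cell type in which *Has1* is known, *Msln*, *Upk1b* and *Lrrn4* were listed at 0 in all libraries, and the 6 summed to 66.7 TPM in SHF replicate 3 and to at most 10.7 TPM elsewhere.

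**Figure D3:**
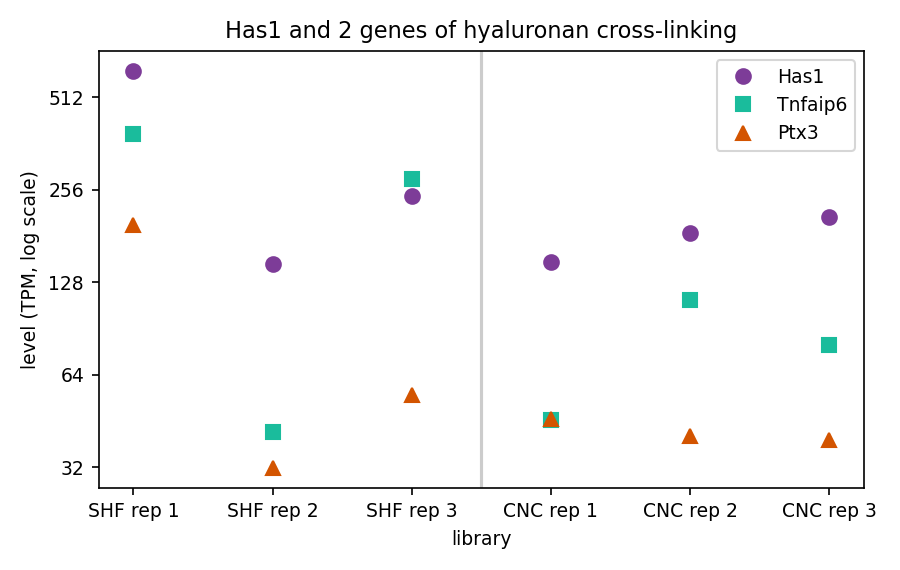
Levels of *Has1*, *Tnfaip6* and *Ptx3* in each library, in TPM on a logarithmic vertical axis, with the libraries along the horizontal axis and 1 point per gene and library. All 3 genes are highest in SHF replicate 1, at 624, 387 and 197 TPM, and lowest in SHF replicate 2, and neither lineage stands apart as a whole.

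Each lectican gene lies beside a link protein gene, with 0 protein-coding genes annotated between them in GENCODE M21. *Vcan* and *Hapln1* are 43659 bases apart on chromosome 13, *Bcan* and *Hapln2* 21519 bases apart on chromosome 3, *Ncan* and *Hapln4* 2222 bases apart on chromosome 8, and *Acan* and *Hapln3* 2 bases apart on chromosome 7. Apart from *Bcan* and *Hapln2*, which share a strand, the partners point towards each other, so that their 3′ ends face. *Hapln2* and *Hapln4* were listed at 0 in all libraries.

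*Hapln1*, from 89539796 to 89611652 on the plus strand of chromosome 13, had 3.43, 23.5 and 14.1 TPM in SHF replicates 1, 2 and 3. It was listed at 0 in CNC replicates 1 and 2 and was at 0.83 TPM in CNC replicate 3. All SHF libraries were above all CNC libraries, as for its neighbour *Vcan*. The difference was 3.27 ± 1.13 (SE) on the log2(TPM + 1) scale, with an adjusted p of 0.692 in limma and an unadjusted p of 0.0149. *Hapln1* entered the test only through its SHF values, so that it had to differ between the lineages, and the size of the difference moves with the pseudocount, from 1.66 with 5 to 5.65 with 0.1. The order of the SHF libraries was not that of *Vcan*, since SHF replicate 1 had the lowest *Hapln1* and SHF replicate 3 the lowest *Vcan*.

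*Bcan*, on chromosome 3 from 87987531 to 88000230, had 5.05 and 44.0 TPM in SHF replicates 1 and 2 and was listed at 0 in the other 4 libraries. In SHF replicate 2 it made up 12.7% of the summed lectican level. *Acan*, on chromosome 7 from 79053483 to 79115099, had 2.37 TPM in SHF replicate 1, and *Hapln3*, from 79115102 to 79131018, had 1.72 TPM in the same library. Both were listed at 0 in the other 5. *Ncan*, on chromosome 8 from 70093085 to 70120873, had 0.11 TPM in CNC replicate 3 and listed at 0 elsewhere. These 4 genes and *Has3* did not meet the filter of the test.

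*Vcan* thus made up 87.3% to 100% of the summed lectican level of a library. *Acan* is abundant in cartilage cells, and 10 of their markers summed to 534 to 878 TPM in SHF and 955 to 1132 TPM in CNC. The most abundant of them was *Comp*, at 308 to 433 TPM in SHF and 696 to 1000.4 TPM in CNC, and of the 5 markers tested the other 4 had a difference above 0. *Sox9*, at 59.3 to 133 TPM in SHF and 32.0 to 52.6 TPM in CNC, did not overlap in the same direction as *Vcan*, and its part in the level of *Vcan* was not tested. *Matn1* was listed at 0 in all libraries and *Col2a1* was at 0.08 TPM in SHF replicate 2 and listed at 0 elsewhere. The 8 Schwann cell markers summed to 12.5 to 28.0 TPM in SHF, where *Bcan* was found, and to 35.2 to 140 TPM in CNC.

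In order of mean TPM the genes were *Has1* (259), *Vcan* (159), *Cd44* (96.3), *Bcan* (8.18), *Hapln1* (6.98), *Has2* (5.70), *Acan* (0.395), *Hapln3* (0.287), *Has3* (0.07) and *Ncan* (0.0183). By mean TPM, *Has1* ranked 593 and *Vcan* 977 among all rows. *Has1* was above *Vcan* in 5 of 6 libraries, the exception being SHF replicate 2, where it was 0.481 times as high, and the neighbours did not differ beyond their spread (exact sign-flip permutation test over libraries, p = 0.156, adjusted p = 0.352). *Vcan* was above *Cd44*, *Cd44* above *Bcan* and *Has2* above *Acan* in 6 of 6 libraries, each with an exact permutation p of 0.0312, the smallest that 6 libraries allow, and an adjusted p of 0.0938 over the 9 neighbour pairs. Within the run *Bcan*, *Hapln1* and *Has2*, neighbours did not differ beyond the spread, with exact permutation p-values of 0.75 and 0.938. *Bcan* and *Hapln1* were tied at 0 in 2 libraries. Within the run from *Acan* to *Ncan*, neighbours were tied at 0 in 3 to 5 of 6 libraries. The exact permutation p-values there, 0.5 or more, could not have been small, and no order is drawn from them.

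**Figure D4:**
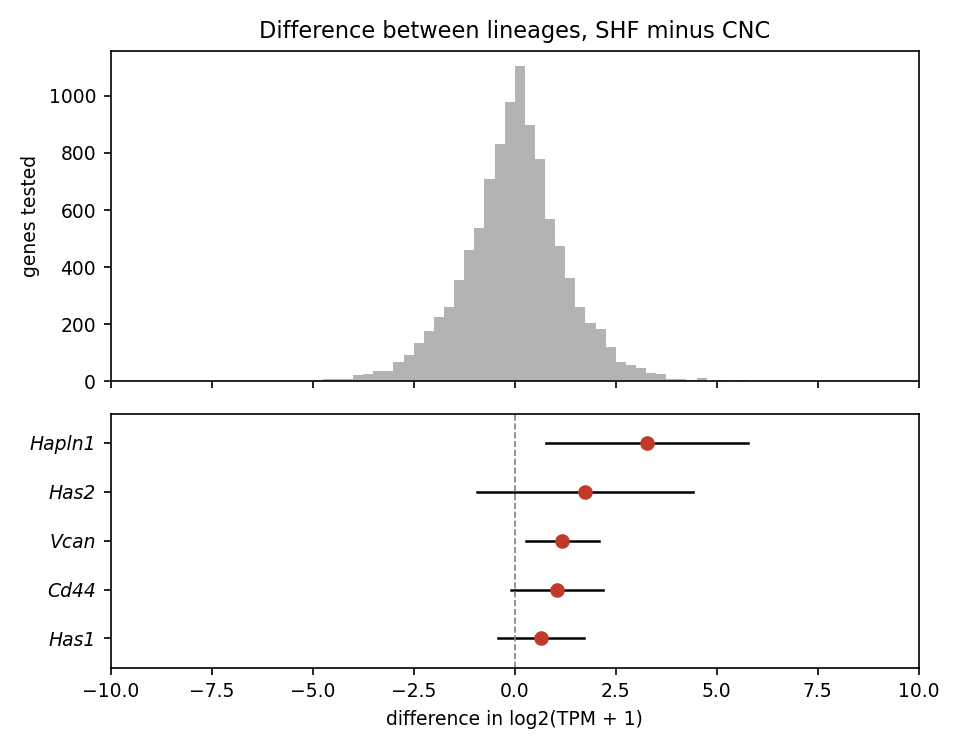
Difference between lineages in log2(TPM + 1), SHF minus CNC, on a shared horizontal axis. The upper panel counts all 10185 genes tested, and the lower panel gives the 5 tested genes of the group as points with 95% intervals from limma. The interval of *Vcan* (0.27 to 2.09) excludes 0, as does that of *Hapln1*, which entered the test only through its SHF values and so had to differ, those of *Cd44*, *Has1* and *Has2* include it, and none has an adjusted p under 0.05.

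Marker genes of other cell types moved with lineage beside these values. Endothelial markers summed to 102 to 636 TPM in the SHF libraries and 38.1 to 77.0 TPM in the CNC libraries, with all 10 above 0 in some library. The sum was highest in SHF replicate 2, as *Vcan*, *Cd44*, *Hapln1*, *Bcan* and *Has2* were, but SHF replicate 3, with a sum of 539 TPM, had less *Vcan* and *Cd44* than SHF replicate 1, with a sum of 102 TPM. The fibroblast markers summed to 29221 to 32484 TPM in SHF and 40269 to 54798 TPM in CNC, the opposite direction to *Vcan* and *Cd44*. Of 9 cardiomyocyte markers, 8 were above 0 in some library and *Myl2* in none, and the list summed to 89.4 to 116 TPM in SHF and 0 to 37.9 TPM in CNC. Of these, *Tnnt2* had 21.5, 87.4 and 60.9 TPM in SHF and 22.1, 0 and 0 TPM in CNC. The part of these cells in the levels of *Vcan*, *Cd44*, *Hapln1*, *Bcan* and *Has2* was not tested.

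Of 78 other genes of the system in 7 lists, all were found, 62 were tested, 0 were called in either direction and 7 were listed at 0 in all libraries. Their lineages did not overlap for 8 (12.9%), 4 in each direction, near the 11.8% of all genes tested. The median difference was 0.01 on the log2(TPM + 1) scale, against 0.02 over all genes tested. Of the 62 genes 33 had a difference above 0 and 29 below, and the medians of single lists ran from -0.14 to 0.94. Genes among the 3 most abundant of each list are named below, and others were named after their values were seen.

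Of 8 genes of hyaluronan breakdown, 6 were tested, 0 were called and the median difference was 0.06, which was -0.80 without CNC replicate 1. *Hexa*, which encodes a lysosomal enzyme, was at 274 ± 65.8 TPM in SHF and 417 ± 135 TPM in CNC (SD, n = 3). *Gusb*, the lysosomal beta-glucuronidase, was higher in each CNC library than in each SHF library, at 22.0 ± 21.1 and 113 ± 67.3 TPM (SD, n = 3), with an adjusted p of 0.692 in limma. The cell surface hyaluronidase gene *Tmem2* was separated the other way, at 12.8 ± 6.80 and 1.28 ± 0.76 TPM (SD, n = 3), with an adjusted p of 0.856 in limma. *Cemip* was listed at 0 in all libraries.

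Of 14 other hyaluronan binders and receptors, 7 were tested, 0 were called and the median difference was 0.94. The most abundant were *Tnfaip6*, *Ptx3* and *Itih5*, the last a gene of the heavy chain family that TSG-6 transfers. *Itih5* did not overlap between lineages, at 104 ± 67.5 TPM in SHF and 32.6 ± 9.98 TPM in CNC (SD, n = 3), and had an adjusted p of 0.812 in limma. The median of this list rested on SHF replicate 1, without which it was 0.03.

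All 12 genes of hyaluronan precursor sugars were tested, 0 were called and the median difference was 0.43, or 0.22 to 0.54 with 1 library left out. *Ugdh*, which makes the UDP-glucuronic acid that hyaluronan synthases use, was at 313 ± 140 TPM in SHF and 385 ± 103 TPM in CNC (SD, n = 3). *Gfpt2*, of the hexosamine pathway, was at 273 ± 114 and 394 ± 317 TPM, and *Gpi1* at 233 ± 46.7 and 176 ± 46.7 TPM (SD, n = 3). *Pgm1* did not overlap between lineages, at 54.1 ± 12.6 TPM in SHF and 12.1 ± 11.7 TPM in CNC (SD, n = 3).

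Of the lectican-cleaving proteases, *Adamts1* was at 247 ± 50.8 TPM in SHF and 185 ± 49.97 TPM in CNC, and *Adamts5* at 52.9 ± 16.0 and 65.5 ± 35.0 TPM (SD, n = 3). Their inhibitor *Timp3* was at 962 ± 373 and 992 ± 394 TPM (SD, n = 3). Of these 8 genes 7 were tested, 0 were called and the median difference was -0.05, or -0.26 to 0.26 with 1 library left out. Only *Adamts9*, higher in CNC, did not overlap, and it was below 5 TPM in all libraries.

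Of 22 genes of chondroitin sulfate chain synthesis, 18 were tested, 0 were called and the median difference was -0.14, which was -0.65 without CNC replicate 2. The most abundant were *Chpf*, a chain polymerizing factor, at 138 ± 33.2 TPM in SHF and 197 ± 116 TPM in CNC, *Chst14* at 87.4 ± 21.7 and 104 ± 64.5 TPM, and *Chst12* at 60.9 ± 53.3 and 128 ± 14.7 TPM (SD, n = 3). *Chst12*, a sulfotransferase gene, was higher in each CNC library, and *Dse*, which converts chondroitin to dermatan sulfate, was higher in each SHF library, at 80.2 ± 5.26 and 64.2 ± 7.07 TPM (SD, n = 3).

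Of 6 matrix ligands of the lectican C-terminal domain, 5 were tested, 0 were called and the median difference was 0.01, or -0.37 to 0.22 with 1 library left out, with differences of single genes from -0.86 (*Fn1*) to 0.86 (*Tnc*). *Fbln1* was at 2138 ± 643 TPM in SHF and 2062 ± 82.5 TPM in CNC, *Fbln2* at 523 ± 116 and 500.2 ± 98.3 TPM, and *Fn1* at 260 ± 166 and 410 ± 113 TPM (SD, n = 3). *Tnr* was listed at 0 in all libraries. Of 8 CD44 linkers and partners, 7 were tested, 0 were called and the median difference was 0.02, which was 0.60 without SHF replicate 3. The actin linker gene *Msn* was at 404 ± 189 and 372 ± 14.9 TPM, *Cd74* at 265 ± 118 and 116 ± 135 TPM, and *Rdx* at 92.4 ± 22.6 and 161 ± 58.4 TPM (SD, n = 3). *Rdx*, which encodes radixin, was higher in each CNC library, opposite to *Cd44*.

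**Figure D5:**
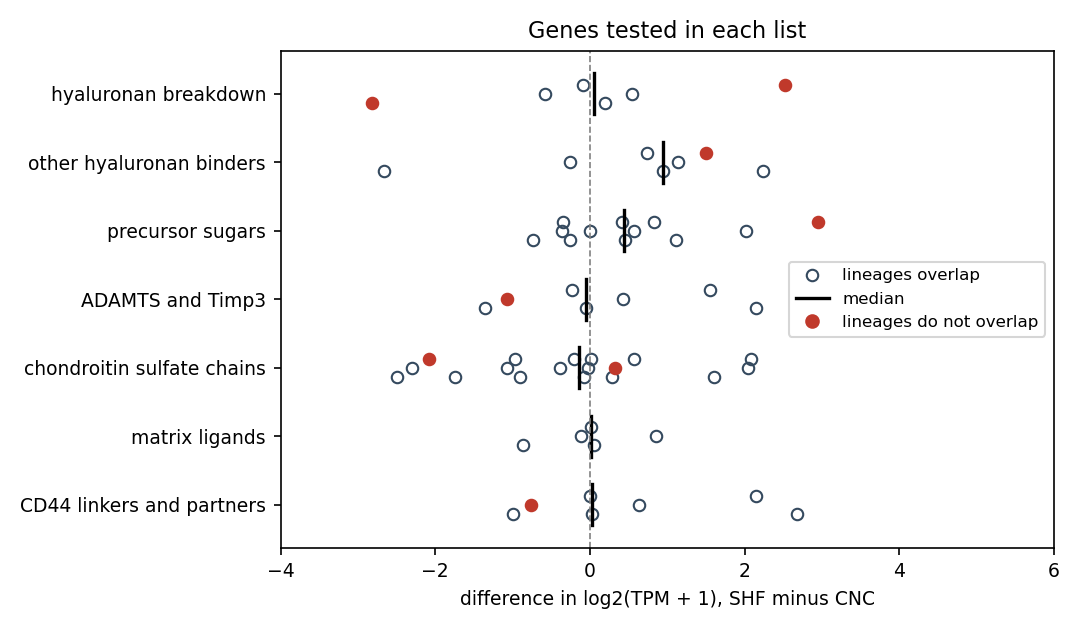
Difference in log2(TPM + 1), SHF minus CNC, for the tested genes of the 7 lists, 1 point per gene on the horizontal axis and 1 row per list. Filled red points are genes whose lineages do not overlap, open points overlap, and black bars are list medians. Filled points lie on both sides of 0, 4 on each, and list medians run from -0.14 to 0.94.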

How the data were processed

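Bulk RNA sequencing of sorted GFP+ cells gave 3 SHF and 3 CNC libraries, and groups were taken from the sample titles. The authors amplified RNA by SmartSeq2, aligned reads with bowtie2 within RSEM 1.2.25 on mm10 and deposited TPM, gene by library. The gene annotation is not given in the sources used here. Columns, whose headers write AHF for SHF, were matched by library code. TPM sum to 1000000 per library and keep no depth.

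From these TPM, differences of log2(TPM + 1), SHF minus CNC, were fitted by limma 3.58.1 under R 4.3.3 (eBayes with a trend) for the 10185 genes that reached 1 TPM in 3 or more libraries, with Benjamini-Hochberg adjustment over all and a threshold of 0.05. The fold changes understate those of low genes. Exact permutation tests were two-sided. The fit was tested on simulated data. Positions are from GENCODE M21 (GRCm38, the build called mm10). The text names the 10 genes, the 3 most abundant of each list and the 3 most like the most abundant gene. Items withheld from the text are not reported here. The genes and lists were chosen with earlier results of these data known. Alternatives were other pseudocounts, filters, scalings, weights, a replicate block and each library left out. Shared replicate numbers did not pair the libraries.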

Additional observations from a re-analysis of the deposited data

How the results depend on the processing

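No gene of the group passed the threshold under any alternative run, and its 5 tested genes kept their direction in all 78 values. Those with another filter, without the trend or with the block leave the difference as it is by construction. The lineages of *Vcan*, *Cd44* and *Hapln1* did not overlap. For these genes another pseudocount, weights or leaving libraries out could not reverse the direction either. Over all genes the count called was 0, and it was 1 with a pseudocount of 5, a gene outside the group, with the cause not tested. In fits that each left out 1 library the number of genes called was 0. Of all 10 genes of the group, the number with lineages that did not overlap was 3 with all libraries and from 3 to 5 with 1 left out. Of all genes tested, 20.1% to 25% did not overlap with 1 left out, against 11.8% with all libraries. That share leaves out genes below the filter, such as *Bcan* and *Has3*, which the number includes. The number was 5 without SHF replicate 3 (*Bcan* and *Has2* added) and without CNC replicate 2 (*Has2* and *Has3* added), and 4 without SHF replicate 2 (*Has1* added). *Hapln1*, *Bcan* and *Has3* were at 1 TPM or more, or above 0, only in the lineage where they were higher. The number exclusive to a lineage was 0 and ran from 0 to 1, *Bcan* without SHF replicate 3. With 1 library fewer there is 1 condition fewer to meet, so neither count could fall. *Hapln1* and *Has2* had no value with a filter of 5 TPM. Of 112 alternative list medians, 5 moved by more than the spread between replicates: hyaluronan breakdown to -0.80 without CNC replicate 1 and 0.71 with SHF replicate 1 alone against CNC, other binders to 0.03 without SHF replicate 1, and CD44 linkers to 0.60 without SHF replicate 3 and 0.73 with SHF replicate 1 alone.

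Both lineages number their libraries 1 to 3, with no animal in common. The deviations of same-numbered libraries from their lineage means correlated at -0.0113, -0.00438 and -0.0106, so they share only a number. The fit with a replicate block called 0 genes. Unknown depth and frequent values of 0 limit the low genes.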
